A study of Mus musculus with 9 samples.

Results

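Frizzled and Ror proteins are the cell-surface receptors that bind Wnt ligands through a shared cysteine-rich domain. The 10 genes described here are Fzd1 to Fzd8, Ror1 and Ror2, out of 18193 genes with a named probe set. A probe set, the group of array probes that reads a transcript, belonged to a member if its only gene symbol in the platform annotation was that member's. This gave 28 probe sets for the 10 genes. Where a gene had several, its main value was that of the brightest on average. All 10 genes passed the filter on dim signals, as did 12770 genes in all. Ror2 lay above the 40th percentile of the array on 8 of 9 arrays and the other 9 genes did so on all 9.

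Frizzled receptors are multi-pass membrane proteins. With the co-receptors Lrp5 and Lrp6 they stabilise beta-catenin, and with Vangl and Celsr proteins they set planar cell polarity. Ror1 and Ror2 are receptor tyrosine kinase-like proteins that are best known as receptors for Wnt5a outside the beta-catenin route. In the mouse eye, loss of Fzd5, alone or together with Fzd8, leads to small eyes and to an optic fissure that fails to close, which is called coloboma.

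RNA was measured on Affymetrix mouse genome arrays in 9 laser-microdissected samples of the optic cup of E11.5 embryos, with 3 arrays per region. The fissure samples held cup cells up to 5 cell diameters from the edge of the optic fissure, the ventral cleft whose margins later fuse. Both the nasal and the temporal sample were cut from the middle of their side of the cup. A fissure sample is thus also the more ventral one. The arrays of each region are biological replicates lettered A, B and C. Strain, genotype and number of embryos are not given in the sources used here, nor is it said that a letter marks the same embryos. The p-values therefore rest on the spread among these 9 arrays only.

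Array medians ran from 27.5 to 30.3 intensity units. On the first principal component, fissure array B scored -9.40 where the other fissure arrays scored -38.6 and -43.0 and the nasal and temporal arrays 4.63 to 29.5. It thus lay between the fissure group and the rest. The ratio of 3-prime to 5-prime Gapdh signal, a measure of RNA integrity, was 4.93 to 15.0 in fissure, 4.90 to 8.77 in nasal and 4.46 to 7.42 in temporal samples. The mean signal of spiked-in polyA control RNAs was 309 to 778 in fissure, 187 to 392 in nasal and 155 to 351 in temporal samples. Within each letter this signal and the Gapdh ratio were highest in the fissure. For the ratio the margin in letter B was small (4.93, with 4.90 in nasal and 4.46 in temporal samples). The part of these measures in the differences below was not tested. Of 6 tested optic cup marker genes, 1 was lower in the fissure and 0 were higher. With the letter as a block, 1 was lower and 1 higher. The lower gene in the main fit was Pax6, a master gene of the eye field (mean intensity 1565, with 3199 for nasal and 2835 for temporal cup). All 3 tested ventral cup and fissure genes were higher, among them the homeobox gene Vax1 (629, with 25.4 and 40.7). The captures also differed in other cell types: 11 of 11 tested macrophage and leukocyte genes and 4 of 6 tested lens genes were higher in the fissure, and 0 were lower. The summed leukocyte signal was 2857 to 3406 in fissure samples, against 499 to 783 in nasal and 398 to 665 in temporal samples. The summed lens signal was 2387 to 3462, against 656 to 677 in nasal and 586 to 1203 in temporal samples. Of 11 periocular mesenchyme genes, 4 were higher and 2 lower, of 4 surface ectoderm genes 0 were higher and 3 lower, and of 6 endothelial and 4 erythroid genes 0 passed. With the array letter as a block, 3 of the 4 erythroid genes were higher. Of 7 pigment epithelium genes, Mitf was higher and Oca2, Mlana and Tyr were lower, and of 4 dorsal cup genes Tbx2 and Tbx3 were lower and 0 were higher. Over all tested genes, 5.72% were higher and 2.88% lower in the fissure. With the letter as a block, 17% of all tested genes were called in either direction. The part of these cell types in the differences below was not tested. In tissue samples, fewer cells of a type and less RNA per cell cannot be told apart.

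RefSeq promoter windows (assembly GRCm38.p6) were matched to 6 of the 10 genes. Those of the 3 genes that differed between regions and had a window are shown first, so that the genes can be told apart at the level of sequence. Fzd2, which also differed, is named only. The 250 bases before the annotated start are printed 5′ to 3′ on the strand of the gene for Fzd1 and Ror2, which were higher in the fissure, and Ror1, which was lower. Capitals mark matches on either strand to the TATA box, searched as TATAAA, the GC box, searched as GGGCGG, or the TCF/LEF core, searched as CTTTGA. The CCAAT box, searched by the letters of its name, and the homeodomain core TAATTA were searched too.
Fzd1, chr5:4758217-4758466, minus strand: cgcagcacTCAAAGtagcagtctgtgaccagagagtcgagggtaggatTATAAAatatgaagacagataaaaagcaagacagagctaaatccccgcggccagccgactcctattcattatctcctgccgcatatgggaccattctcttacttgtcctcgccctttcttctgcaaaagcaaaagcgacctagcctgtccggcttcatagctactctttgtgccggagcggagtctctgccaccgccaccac
Ror2, chr13:53286125-53286374, minus strand: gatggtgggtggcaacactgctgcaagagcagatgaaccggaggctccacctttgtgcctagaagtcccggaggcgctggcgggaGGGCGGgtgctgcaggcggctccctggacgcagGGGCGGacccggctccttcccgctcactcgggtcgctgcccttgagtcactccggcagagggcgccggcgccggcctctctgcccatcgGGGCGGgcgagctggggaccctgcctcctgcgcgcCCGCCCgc
Ror1, chr4:100095541-100095790, plus strand: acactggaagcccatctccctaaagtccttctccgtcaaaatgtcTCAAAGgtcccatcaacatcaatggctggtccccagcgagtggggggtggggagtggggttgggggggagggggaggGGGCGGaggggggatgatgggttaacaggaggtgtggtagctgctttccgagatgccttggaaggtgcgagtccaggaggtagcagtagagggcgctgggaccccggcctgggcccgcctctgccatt

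The windows of Fzd1 and Ror2 differed in composition. The Ror2 window was 73.2% G or C with 24 CpG dinucleotides and held 4 GC boxes. The Fzd1 window was 51.2% G or C with 12 CpG dinucleotides and held 0 GC boxes, 1 TATA box and 1 TCF/LEF core. The Ror1 window held 1 GC box and 1 TCF/LEF core, at 62.4% G or C. No regional difference was detected for Fzd4, Fzd5 and Fzd7 at their main probe sets. Their windows held 7, 9 and 6 GC boxes at 72.8%, 76.4% and 65.2% G or C. Over all windows of this length the median was 52.4% G or C. Of all 32851 windows of this length, 32.7% held a GC box, 12.4% a TATA box, 13.8% a TCF/LEF core, 33.8% a CCAAT box and 4.84% a homeodomain core. The last 2 were found in none of the 3 windows shown. A match describes the letters and is not a binding site.

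The main comparison sets the fissure samples against the average of both other regions, so that each of these weighs the same. In limma, Fzd1, Ror2 and Fzd2 were higher in the fissure, Ror1 was lower, and the other 6 genes did not pass an adjusted p of 0.05. That is 4 of 10 genes, beside 8.6% of all tested genes called in either direction (5.72% higher and 2.88% lower). The same 4 were those with an unadjusted p below 0.05, beside 22.1% of all tested genes. The median difference of the 10 genes was 0.11 on the log2(intensity + 16) scale, beside 0.04 over all tested genes. These 4 were also the genes whose fissure arrays did not overlap the other 6 arrays, as was the case for 14.2% of tested genes.

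**Figure D1:**
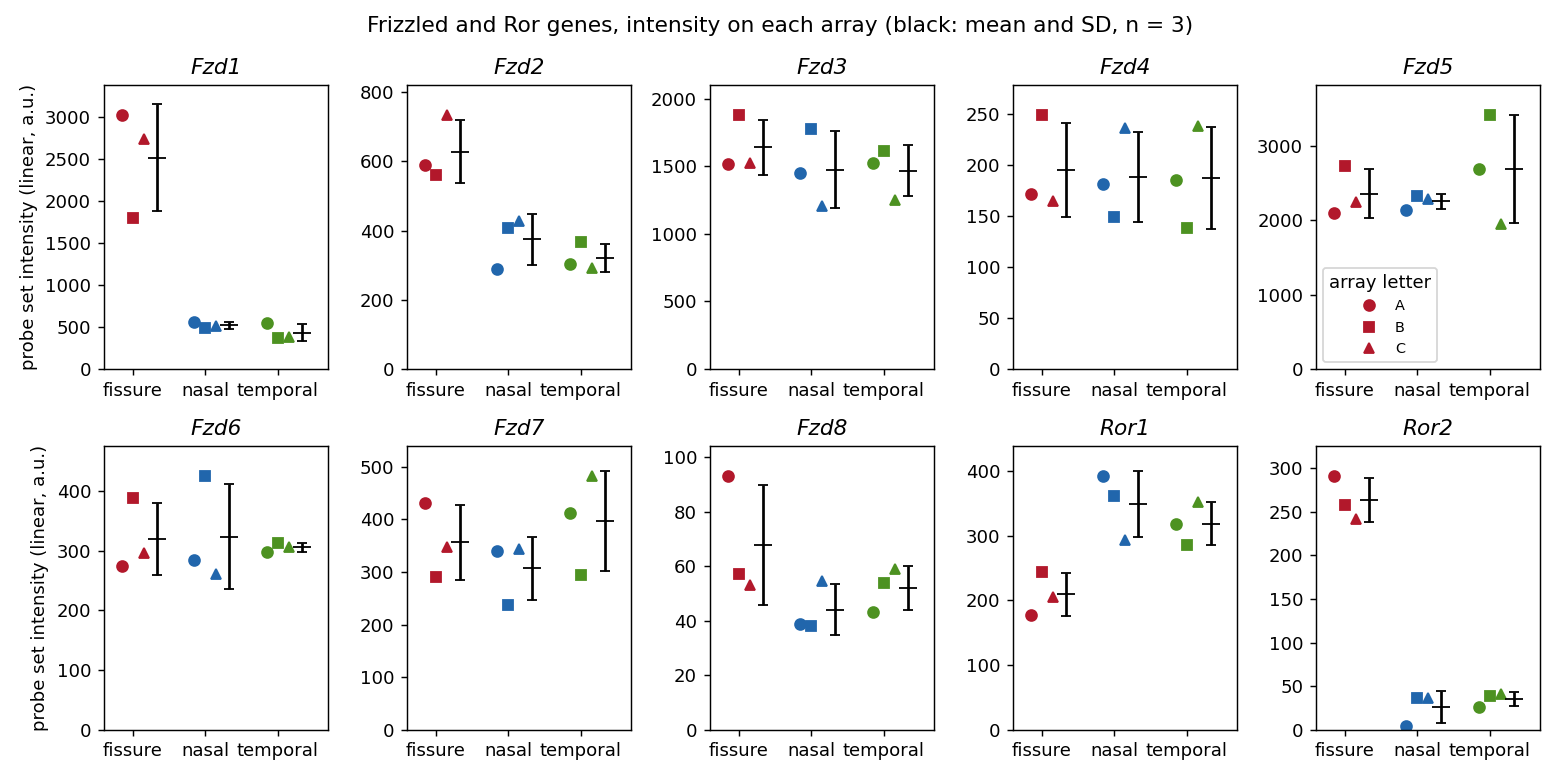
Intensity (linear, arbitrary units) of the main probe set of each Frizzled and Ror gene on the 9 arrays, by region. Symbols give the array letter and black bars the mean and SD of 3 arrays. Fzd1, Fzd2 and Ror2 lie higher on every fissure array than on any other array, and Ror1 lies lower.

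Fzd1 encodes a receptor of the beta-catenin route and is closest in sequence to Fzd2 and Fzd7. It read 3022, 1800 and 2737 intensity units on fissure arrays A, B and C, against 563, 482 and 509 on nasal and 549, 374 and 377 on temporal arrays. Every fissure array lay far above every other array, and array B was the lowest fissure array. Mean intensity was 2520 ± 640 for fissure, 518 ± 41.5 for nasal and 433 ± 100 for temporal (SD over n = 3 arrays). The difference was 2.35 on the log2(intensity + 16) scale (SE 0.19, limma adjusted p = 2.57e-05), or 5.10-fold. Within letters A, B and C the fissure exceeded the mean of the other regions by 2.41, 2.04 and 2.60. Without fissure array B the difference was 2.57. In the mean of both Fzd1 probe sets the difference was 1.47. The other Fzd1 probe set read at most 27.2 on any array and was not tested.

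Ror2 encodes a Wnt5a receptor whose mutations in people cause limb shortening. It read 291, 258 and 242 on fissure arrays A, B and C, against 4.30, 35.9 and 36.8 on nasal and 25.5, 38.7 and 40.9 on temporal arrays. The fissure arrays were close to each other, and all other arrays were at the dim end of the scale, where log2 differences depend on the pseudocount of 16. Mean intensity was 263 ± 25.2 for fissure, 25.7 ± 18.5 for nasal and 35.0 ± 8.33 for temporal (SD over n = 3 arrays). The difference was 2.67 (SE 0.27, limma adjusted p = 1.16e-04). It was 3.40, 2.36 and 2.23 within letters A, B and C, and 2.68 without fissure array B. The second Ror2 probe set read 225, 334 and 199 on fissure arrays, against 18.3, 10.9 and 44.7 in nasal and 23.7, 31.7 and 28.9 in temporal samples, with a difference of 2.68 (SE 0.25, limma adjusted p = 7.98e-05 over all probe sets tested). The Ror2 probe sets thus differed between regions by nearly the same amount.

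Fzd2 encodes a receptor that takes part in Wnt5a signalling. It read 590, 561 and 733 on fissure arrays, against 289, 407 and 427 on nasal and 302, 366 and 292 on temporal arrays. The lowest fissure array exceeded the highest other array, and the means were 628 ± 92.0, 375 ± 74.6 and 320 ± 40.1 in fissure, nasal and temporal samples (SD, n = 3 each). The difference was 0.83 (SE 0.16, limma adjusted p = 0.00815), 1.78-fold, and was 0.96, 0.52 and 1.02 within letters A, B and C. Without fissure array C the limma adjusted p was 0.0612, and without fissure array B it was 0.0116. The other Fzd2 probe sets were also higher on average in the fissure but did not pass over all probe sets tested. They differed by 0.48 (SE 0.18, limma adjusted p = 0.180) and 0.41 (SE 0.14, limma adjusted p = 0.138).

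Ror1, the close relative of Ror2, went the other way. It read 178, 245 and 205 on fissure arrays, against 392, 361 and 293 on nasal and 318, 286 and 352 on temporal arrays. All fissure arrays lay below all others. The means were 209 ± 33.4, 349 ± 50.9 and 319 ± 33.0 in fissure, nasal and temporal samples (SD, n = 3 each). The difference was -0.64 (SE 0.15, limma adjusted p = 0.0230), and it was -0.93, -0.37 and -0.61 within letters A, B and C. Without fissure array A, fissure array C or nasal array A the difference was -0.53, -0.63 and -0.59, with limma adjusted p-values of 0.151, 0.0997 and 0.0551. Calls over all genes numbered 486 and 524 without fissure array A or C, against 1098 with all arrays. Without fissure array B the adjusted p was 0.0151. In the mean of all Ror1 probe sets the difference was -0.37 (limma adjusted p = 0.115). The other Ror1 probe sets were below the filter and were not tested.

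Among the remaining Frizzled genes, Fzd5 and Fzd8 are those tied to fissure closure in the mouse. Fzd5 read 2101, 2734 and 2243 on fissure arrays, against 2144, 2333 and 2290 in nasal and 2696, 3414 and 1955 in temporal samples. These ranges overlapped, and the difference was -0.05 (95% interval -0.44 to 0.34, limma adjusted p = 0.907). Fzd8 was dim at its main probe set, with 93.0, 57.1 and 53.0 on fissure arrays, against 38.8, 38.2 and 54.7 in nasal and 43.2, 53.9 and 58.8 in temporal samples. Only fissure array A stood clear of the rest, and the difference of 0.37 (95% interval -0.02 to 0.76, limma adjusted p = 0.252) did not pass.

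A second Fzd8 probe set gave another picture. It read 80.9, 72.5 and 84.4 on fissure arrays, against 27.3, 24.7 and 22.3 in nasal and 41.0, 22.4 and 17.0 in temporal samples. Here no fissure array overlapped the others, and the difference was 1.21 (SE 0.18, limma adjusted p = 0.00180 over all probe sets tested, of which 5.74% were called). The mean of the Fzd8 probe sets differed by 0.79 (limma adjusted p = 0.00189).

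Fzd3 and Fzd6 encode the Frizzled receptors of planar cell polarity, and Fzd3 is also needed for the growth of axon tracts. At its main probe set Fzd3 read 1517, 1876 and 1522 on fissure arrays, against 1446, 1773 and 1205 in nasal and 1525, 1616 and 1253 in temporal samples. The regions overlapped, with a difference of 0.16 (95% interval -0.19 to 0.51, limma adjusted p = 0.614). Of the 5 other Fzd3 probe sets, 3 were higher in the fissure over all probe sets tested, 1 did not pass (-0.03, limma adjusted p = 0.982) and 1 was too dim to test. The tested probe set that did not pass, 1438101_at, read 35.7, 159 and 25.4 on fissure arrays. It read 73.2, 15.0 and 68.5 in nasal and 67.6, 112 and 48.2 in temporal samples. Without the 3 arrays of letter B, 1438101_at gave -0.79 (limma adjusted p = 0.0328).

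The brightest of the 3 higher probe sets, 1449730_s_at, read 492, 452 and 445 on fissure arrays. It read 221, 274 and 206 in nasal and 279, 292 and 218 in temporal samples. The suffix marks a probe set that can match more than a single transcript. Its difference was 0.87 (SE 0.15, limma adjusted p = 0.00548). Probe set 1450135_at read 213, 176 and 160, against 101, 102 and 87.0 and 109, 110 and 121, a difference of 0.71 (SE 0.14, limma adjusted p = 0.0111). Probe set 1421157_at read 183, 131 and 165, against 109, 86.5 and 66.6 and 85.8, 85.0 and 83.7, a difference of 0.78 (SE 0.16, limma adjusted p = 0.0164). In these 3 probe sets the lowest fissure array exceeded the highest array of the other regions. The calls of the last 2 did not hold without fissure array A (limma adjusted p = 0.0951 and 0.121), and that of 1421157_at did not hold without fissure array C (0.0860). The Fzd3 probe sets therefore do not give a single answer for the gene, and their mean differed by 0.45 (limma adjusted p = 0.0382).

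**Figure D2:**
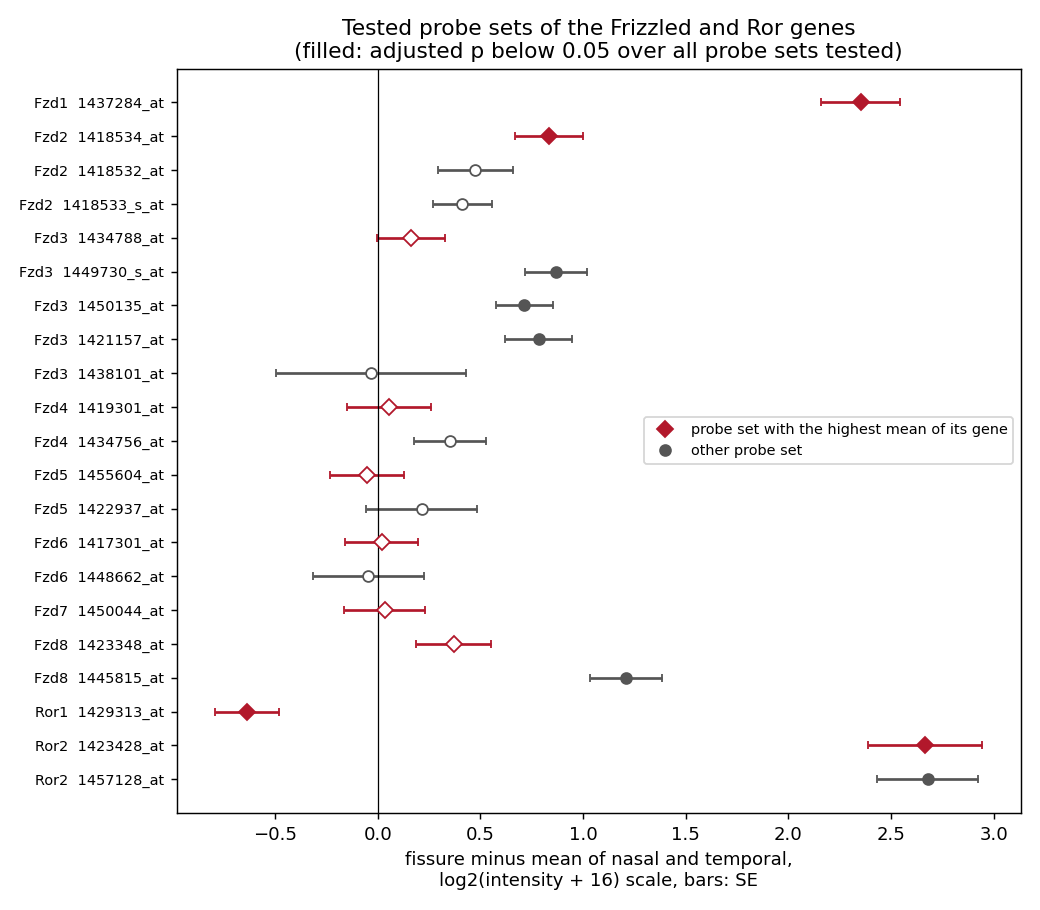
Difference of the fissure from the mean of nasal and temporal cup on the log2(intensity + 16) scale, with SE, for the 21 tested probe sets of the 10 genes. Diamonds are main probe sets, circles the others, and filled symbols have an adjusted p below 0.05. The Ror2 probe sets lie together at 2.67 and 2.68, whereas those of Fzd3 and Fzd8 are split.

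Fzd6, Fzd7 and Fzd4 did not differ detectably. Fzd6 averaged 319 ± 60.3, 323 ± 88.6 and 306 ± 7.53 in fissure, nasal and temporal samples (SD, n = 3 each), a difference of 0.02 (95% interval -0.36 to 0.40). Fzd7, which is close to Fzd1 and Fzd2 in sequence, averaged 357 ± 71.6, 307 ± 60.1 and 397 ± 94.9, a difference of 0.03 (95% interval -0.39 to 0.46). Fzd4, the receptor for Norrin in retinal vessels, averaged 195 ± 46.5, 189 ± 44.1 and 187 ± 49.8, a difference of 0.05 (95% interval -0.39 to 0.50). Their limma adjusted p-values were 0.965, 0.947 and 0.915. In these 3 genes the arrays of every region overlapped those of the others, and each interval reaches a change of 0.36 or more in either direction. A further Fzd4 probe set differed by 0.35 (SE 0.17, limma adjusted p = 0.310).

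Over all 21 tested probe sets of the 10 genes, 8 were higher in the fissure, 1 was lower and 12 did not pass, beside 3.82% higher and 1.92% lower of all 23503 probe sets tested. Probe sets of 1 gene share its transcripts and are not independent. The other 7 probe sets were below the filter, and none of them exceeded 27.2 on any array.

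Set against the nasal cup alone, the fissure was higher in Fzd1, Ror2 and Fzd2 and lower in Ror1 (4 of 10 genes, beside 6.37% of all tested genes, 4.41% higher and 1.97% lower). In these 4 the fissure and nasal arrays did not overlap, beside 22.5% of all tested genes, and 5 had an unadjusted p below 0.05, beside 18.5%. The differences were 2.22 for Fzd1, 2.87 for Ror2, 0.73 for Fzd2 and -0.70 for Ror1, with limma adjusted p-values of 1.37e-04, 2.51e-04, 0.0423 and 0.0363. The calls of Fzd1 and Ror2 held when any single array was left out, and those of Fzd2 and Ror1 were near the threshold. Fzd2 did not pass without fissure array A or C (0.117 and 0.181), nasal array A, B or C (0.169, 0.0713 and 0.0539) or temporal array A or C (0.0653 and 0.0531). Ror1 did not pass without fissure array A or C (0.173 and 0.123), nasal array A or B (0.147 and 0.106) or temporal array A (0.0593). For Fzd8 the difference was 0.46, with an interval of 0.01 to 0.91 and a limma adjusted p of 0.252.

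Set against the temporal cup alone, Fzd1, Ror2 and Fzd2 were higher (3 of 10 genes, beside 5.36% of all tested genes, 3.47% higher and 1.9% lower). The fissure and temporal arrays did not overlap in 4 genes, Ror1 included, beside 21.7% of all tested genes, and these 4 had an unadjusted p below 0.05, beside 18.2%. The differences were 2.49, 2.46 and 0.94, with limma adjusted p-values of 7.46e-05, 8.29e-04 and 0.0135. Fzd2 did not pass without fissure array C (0.0704), temporal array A (0.0576) or temporal array C (0.0501). Ror1 differed by -0.58 (95% interval -0.96 to -0.19, limma adjusted p = 0.0883), and passed without fissure array B (0.0423) and with array weights (0.00273). These comparisons share the fissure arrays with each other and with the main comparison.

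Between the nasal and temporal cup, 0 of the 10 genes passed in limma and 0 had an unadjusted p below 0.05, beside 0.047% of all tested genes called (0.0235% in each direction) and 2.91% with an unadjusted p below 0.05. The 2 widest gaps were those of Ror2, at 25.7 ± 18.5 against 35.0 ± 8.33 (difference -0.41, 95% interval -1.10 to 0.29), and Fzd7, at 307 ± 60.1 against 397 ± 94.9 (difference -0.34, 95% interval -0.84 to 0.15; SD, n = 3 each). The nasal and temporal arrays overlapped in all 10 genes, beside 6.8% of all tested genes in which they did not.

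From high to low, mean intensity ran fissure, nasal, temporal for Fzd1, Fzd2, Fzd3 and Fzd4, and fissure, temporal, nasal for Ror2 and Fzd8. It ran temporal, fissure, nasal for Fzd5 and Fzd7, nasal, fissure, temporal for Fzd6, and nasal, temporal, fissure for Ror1. Neighbours in these orders had overlapping arrays, except that the fissure stood clear of the next region in Fzd1, Fzd2, Ror2 and Ror1.

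**Figure D3:**
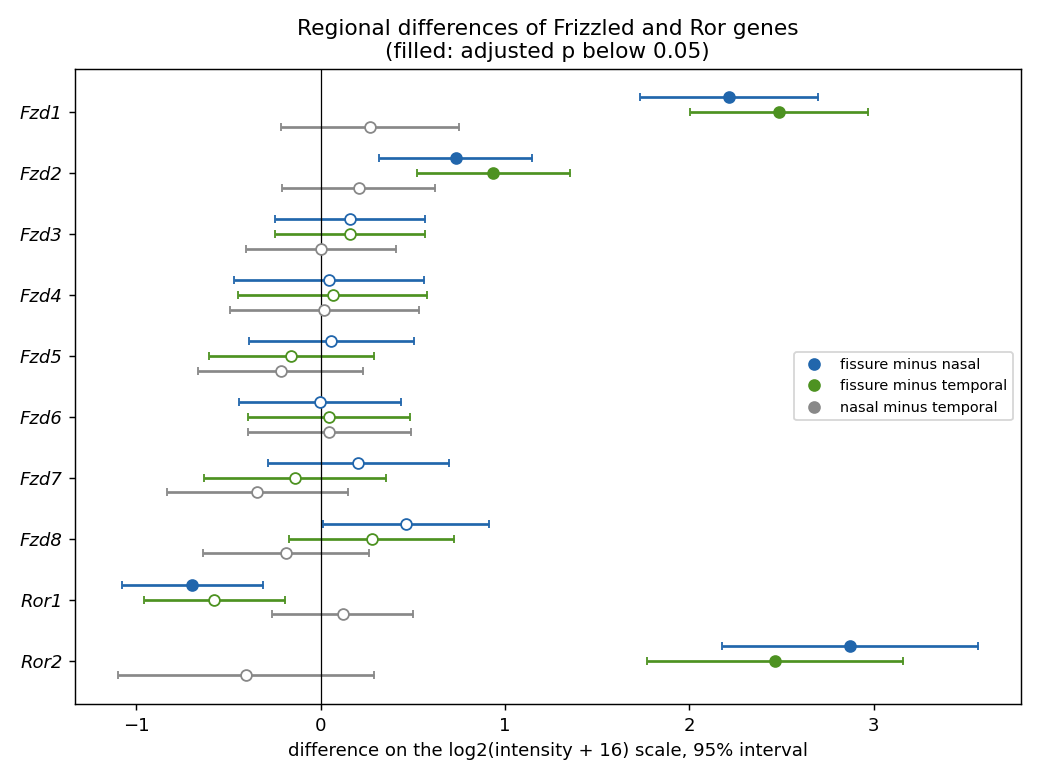
Regional differences of the 10 genes on the log2(intensity + 16) scale with 95% intervals, for fissure minus nasal, fissure minus temporal and nasal minus temporal. Filled symbols have an adjusted p below 0.05. Fzd1 and Ror2 lie above 2 in both fissure comparisons, and every nasal minus temporal interval includes 0.

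The main fit did not use the array letters. With the letter as a block the same genes passed in each comparison, 4, 4, 3 and 0. Over all tested genes the block raised the share called to 17% in the main comparison, 12.5% against nasal, 12.1% against temporal and 0.133% between nasal and temporal cup.

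Over the 9 arrays, the genes most like each member in pattern were found by Pearson correlation of log2 values. For Fzd1 these were Ezr, which encodes the membrane linker ezrin (r = 0.996), and Ptprc, the leukocyte antigen CD45 (r = 0.987). For Fzd2 they were the leukocyte gene Cd52 (r = 0.965) and Ammecr1l (r = 0.961), for Ror2 Klc4 (r = 0.979) and Dnm3 (r = 0.978), and for Ror1 Wrn (r = 0.957) and Ephx1 (r = 0.955). The correlations span fissure and other arrays, so any gene that differs between them shares much of this pattern. Fissure array B lay between the other fissure arrays and the rest on the first principal component. Among the members that did not pass at their main probe set, Fzd3 was nearest to Selenot and Tmem263, Fzd4 to Ticam1 and Pabpc1, Fzd5 to Fmn2 and Spin4, Fzd6 to Dcp2 and Zfp39, Fzd7 to St7l and Pigm, and Fzd8 to Rab11fip5 and Mtus2, with r between 0.904 and 0.979.

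The rest of the Wnt pathway was read in the main comparison. The counts below stand beside 5.72% higher and 2.88% lower of all tested genes, and 22.1% with an unadjusted p below 0.05. With the letter as a block, 1405 of all 12770 tested genes were higher and 767 lower. Of 11 tested genes for Wnt ligands and Norrin, 2 were higher and 0 lower (median -0.02, 3 with an unadjusted p below 0.05). Wnt7b, a ligand that can act through the beta-catenin route, read 141, 89.2 and 104 on fissure arrays, against 59.7, 55.4 and 29.0 in nasal and 43.6, 38.3 and 57.4 in temporal samples (difference 1.01, SE 0.20, limma adjusted p = 0.00855). Ndp, which encodes Norrin, the ligand of Fzd4, was near the dim end at 30.1, 30.6 and 25.4, against 9.90, 14.7 and 14.2 and 17.3, 14.3 and 16.6 (difference 0.55, SE 0.13, limma adjusted p = 0.0190). Without fissure array A neither passed (limma adjusted p = 0.0696 and 0.108), and Ndp did not pass without fissure array C (0.0525) or with a pseudocount of 64 (difference 0.24, limma adjusted p = 0.0985). In the mean of all its probe sets Wnt7b differed by 0.61 (limma adjusted p = 0.04996). Wnt5a, the ligand best known for Ror2, averaged 56.2 on fissure arrays, 71.1 on nasal and 75.6 on temporal arrays. The fissure arrays lay below all others, but the gene did not pass (difference -0.30, limma adjusted p = 0.229).

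Of 9 tested co-receptor and receptor turnover genes, 1 was lower and 0 higher (median -0.15, 2 with an unadjusted p below 0.05). Lgr5, a receptor for R-spondins, read 137, 175 and 133 on fissure arrays, against 307, 357 and 332 in nasal and 328, 341 and 276 in temporal samples (difference -1.05, SE 0.14, limma adjusted p = 7.24e-04). All fissure arrays lay below the others. The co-receptor Lrp6 (difference -0.17, limma adjusted p = 0.629) and the Wnt5a-binding receptor Ryk (-0.20, limma adjusted p = 0.656) did not pass.

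Secreted regulators differed in either direction: of 13 tested antagonists and R-spondins, 3 were higher and 2 lower (median -0.08). An unadjusted p below 0.05 was found for 9 of the 13. With the letter as a block, 4 were higher and 3 lower. Dkk1, which blocks Lrp5 and Lrp6, read 417, 250 and 284 on fissure arrays, against 47.9, 30.2 and 43.3 in nasal and 81.8, 58.3 and 116 in temporal samples (difference 2.13, SE 0.21, limma adjusted p = 1.00e-04). Rspo3, an R-spondin that keeps Frizzled receptors at the cell surface, read 113, 105 and 109, against 12.9, 20.5 and 23.1 and 16.8, 5.40 and 24.8 (difference 1.94, SE 0.19, limma adjusted p = 1.03e-04). Both genes had fissure arrays far above all others. In the mean of all its probe sets Rspo3 differed by 0.97, and over all alternatives by 0.97 to 2.72. Frzb, a secreted Frizzled-like antagonist, was higher (difference 1.08, limma adjusted p = 0.0132), and 2 genes were lower, named after their values were seen: Sfrp2, a related antagonist (-1.12, limma adjusted p = 0.0148), and Wif1, which binds Wnt ligands (-1.01, limma adjusted p = 0.0232). Frzb, Sfrp2 and Wif1 did not pass without fissure array A (limma adjusted p = 0.0718, 0.0625 and 0.144). Frzb and Wif1 did not pass without fissure array C (0.0649 and 0.0924), nor Wif1 without nasal array A (0.0524). Frzb did not pass with a pseudocount of 1 (difference 1.79, limma adjusted p = 0.0735), nor Wif1 with a pseudocount of 64 (-0.42, limma adjusted p = 0.0680).

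Inside the cell, 0 of 15 tested genes of the Dishevelled and beta-catenin route passed in limma (median 0.00, 2 with an unadjusted p below 0.05), and 1 passed with the letter as a block. Of 18 tested genes of planar cell polarity and the non-canonical route, 1 was higher and 0 lower, near the share over all genes. The median was 0.26, 4 had an unadjusted p below 0.05, and 2 were higher with the letter as a block. Prickle2, a cytoplasmic polarity protein gene, read 93.6, 72.2 and 84.9 on fissure arrays, against 46.0, 34.3 and 22.2 in nasal and 45.3, 30.4 and 47.2 in temporal samples (difference 0.91, SE 0.18, limma adjusted p = 0.00779, and 0.0610 without fissure array A). With a pseudocount of 64 the difference was 0.54. Of 9 tested common targets of the beta-catenin route, Dkk1 was higher and Lgr5 lower (median -0.26, 5 with an unadjusted p below 0.05). With the letter as a block, 1 target was higher and 2 were lower. The target Axin2, a feedback inhibitor of the route, averaged 148 in fissure, 142 in nasal and 141 in temporal samples (difference 0.05, limma adjusted p = 0.910). Of the other Frizzled-class genes, Fzd10 and Smo did not pass (limma adjusted p = 0.897 and 0.842), and Fzd9 was below the filter. Between nasal and temporal cup, 0 genes of these lists passed in limma.

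**Figure D4:**
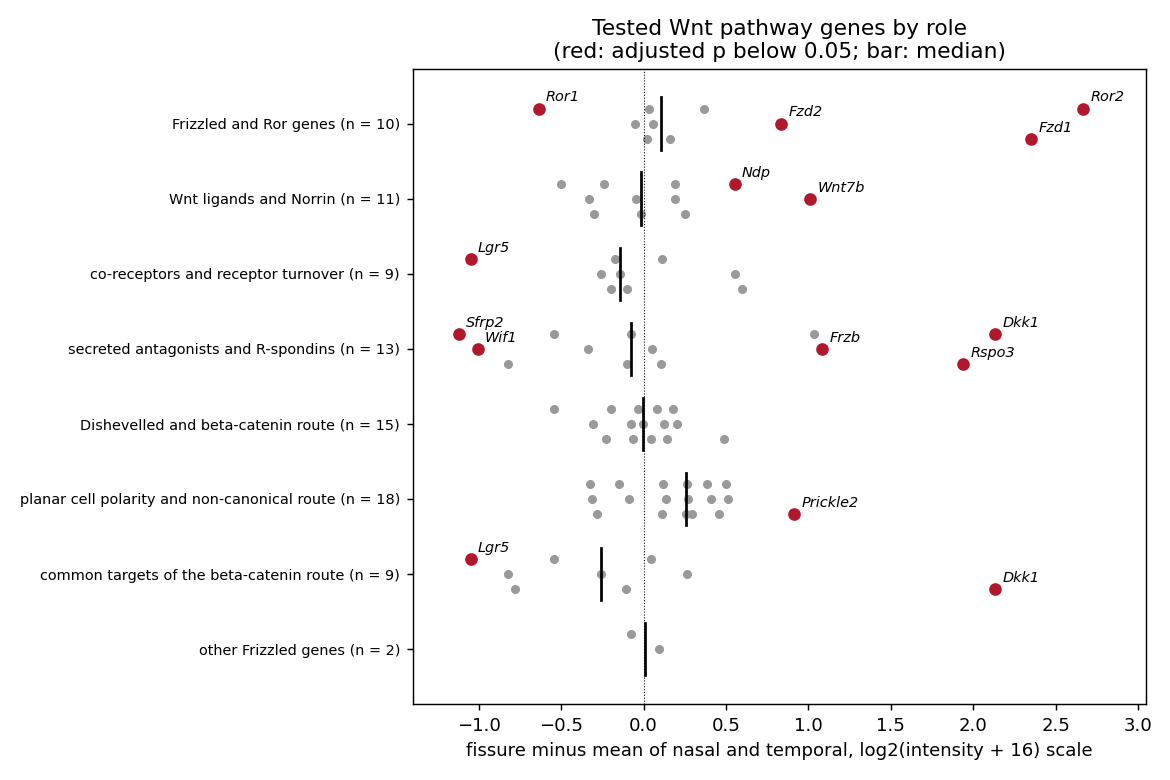
Difference of the fissure from the mean of nasal and temporal cup on the log2(intensity + 16) scale for the tested genes of the Wnt pathway, by role. Red points have an adjusted p below 0.05, grey points do not, and bars are medians. Ror2 and Fzd1 among the receptors and Dkk1 and Rspo3 among the secreted regulators lie farthest to the right.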

How the data were processed

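The authors deposited probe set intensities on a linear scale for 45101 probe sets on each of 9 arrays. The labels describe biotin-labelled RNA and the standard Affymetrix protocol. No source used here states how probes were summarised. The mean after trimming 2% from each end was 149 to 150 on every array, so values were used without further scaling.

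Names came from the platform annotation, in which 34945 probe sets had 1 symbol, 932 several and 9160 none, and 64 were controls. Gene IDs of all 10 members matched RefSeq (GRCm38.p6). Intensities were turned into log2(intensity + 16), which understates differences of dim genes. Genes above the 40th percentile of the array on at least 3 arrays were tested with lmFit and eBayes of limma 3.58.1 (R 4.3.3; 1 mean per region, 9 arrays), and p-values were adjusted over all 12770 genes (Benjamini-Hochberg), or over all 23503 probe sets. The threshold was an adjusted p of 0.05. The script was tested on simulated data. The simulation had independent noise on each array, without the shared deviations of same-letter arrays described below.

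Deviations from region means correlated at 0.17 to 0.49 in the 9 same-letter pairs of arrays. In the 18 different-letter pairs they correlated at -0.44 to 0.22. A pairing by letter was thus read from the data and not from the labels. It entered only an alternative fit, as a block, and the main fit ignored it. The members, lists and tests were chosen with earlier results of these data known. The text names all 10 members, of each Wnt list up to 3 passing genes with the smallest p, and the 2 genes most correlated with each member. Other genes are named as background, and were chosen after their values were seen. The number of arrays limits the precision.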

Additional observations from a re-analysis of the deposited data

How the results depend on the processing

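Of the alternatives, none turned the sign of a called difference among 1261 recomputed values of genes and probe sets: 1203 kept their side of the threshold, 45 lost it and 13 gained it. The calls of Fzd1 and Ror2 held in all 3 fissure comparisons under every alternative. In the main comparison 4 genes passed, and 2 to 4 when single arrays were left out. Against nasal cup, 4 passed, but 2 with a pseudocount of 1, 2 with each probe set on its own, 2 with only the regions compared, and 2 to 4 with single arrays left out. Fzd2 also missed the threshold against nasal cup with a common array median (limma adjusted p = 0.0631) and with no filter (0.0564). Against temporal cup, 3 passed and 5 with array weights, which also called Fzd8 in the main comparison (0.67, limma adjusted p = 0.00726). With the replicate block the numbers were 4, 4, 3 and 0. In the main comparison, the mean of all probe sets called Fzd3 and Fzd8 and not Ror1 (-0.37, limma adjusted p = 0.115). Against nasal or temporal cup alone it did not call Fzd3 (limma adjusted p = 0.0711 and 0.106). Over all genes, 1098 passed in the main comparison, between 486 without fissure array A and 4100 with array weights. The range was 373 to 2675 around 814 for fissure against nasal, 329 to 3133 around 685 for fissure against temporal, and 2 to 17 around 6 for nasal against temporal. The cause was not tested.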
